A study of Rattus norvegicus with 2 samples.

Results

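The macrophages of rat dorsal root ganglia (DRGs) were described in 396 cells of 24179 barcodes, chosen by their own counts in the single-cell libraries. A barcode, the tag of 1 droplet, was selected on at least 1000 unique molecular identifiers (UMIs, each 1 captured mRNA molecule) with under 20% of them from genes whose symbols start with Mt-. Per 10000 UMIs it had at least 10 of C1qa, C1qb, C1qc and Csf1r together, under 12 of the satellite glial genes Fabp7 and Tyrp1, and under 5 of the endothelial genes Cldn5, Flt1 and Cdh5. The gate held 230 cells of the DPN library and 166 of the Control library. These genes set membership, so their levels are a description only.

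The DPN library came from the L3 to L6 ganglia of 5 Sprague Dawley rats with diabetic peripheral neuropathy, pooled 8 weeks after 1 injection of 65 mg/kg streptozotocin, which destroys the beta cells of the pancreas. The Control library came from the same ganglia of 5 rats given citrate buffer, likewise pooled. All rats were 8 weeks old at the start, and all ganglia were dissociated with collagenase and trypsin and counted with a 10x Genomics 3′ assay. With 1 library for each condition, rats, preparation and disease cannot be told apart, no test between the conditions was possible, and every interval below is a 95% interval for counting error alone.

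Macrophages of sensory ganglia lie between the neurons, their satellite glia and the vessels, where they take up debris and present antigen. They sense complement, lipids and microbial products through surface receptors and can release the cytokine IL-1β and chemokines of the CXCL family, which draw neutrophils. After nerve injury and in diabetes they are studied for their part in pain and nerve degeneration.

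The gated cells held 1068773 UMIs in the DPN library and 897177 in the Control library, of 115409375 and 121101966 UMIs over all barcodes. A gated cell had a median of 4290 UMIs (1439 to 21727) and 1521.5 genes in DPN, and 4846.5 UMIs (1017 to 15715) and 1475 genes in Control. Genes starting with Mt- took a median of 7.91% of its UMIs in DPN and 6.65% in Control. The 2 libraries shared 38 barcode sequences, 4 of which lay in the gate of either library.

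The gated cells were 1.75% (1.53% to 1.99%) of the 13168 DPN barcodes and 1.51% (1.29% to 1.75%) of the 11011 Control barcodes, with exact binomial intervals. Of the barcodes within the UMI and Mt- limits they were 2.09% (1.83% to 2.37%) in DPN and 1.69% (1.45% to 1.97%) in Control. The intervals overlapped on both scales, and the difference between the libraries was not tested. Few cells lay near the threshold. The sum of the C1q genes and Csf1r was at least 11 per 10000 in gated DPN cells and 14.3 in gated Control cells, and at most 9.73 in DPN and 9.68 in Control in cells left out for this sum alone. Between 10 and 20 per 10000 lay 9 DPN and 3 Control cells, and between 5 and 10 per 10000 lay 16 DPN and 5 Control cells outside the gate. The satellite glial limit left out 6 DPN and 7 Control cells, and the endothelial limit 8 DPN and 0 Control cells.

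Macrophage genes that the gate did not use were also found in these cells. The 15 other identity genes with a symbol in the counts summed to 15255 CPM (UMIs per 1000000 UMIs of these cells) in DPN and 16104 CPM in Control. In endothelial cells of the same libraries they summed to 190.2 CPM in DPN and 210.1 CPM in Control, and in satellite glia to 25.4 and 23.6 CPM. Among the 20 genes that stood out most from the other passing barcodes were the folate receptor gene Folr2 (1427 times their level), the lipid receptor gene Trem2 (1370.3 times), the leukotriene synthase gene Ltc4s (1256 times), the calcium-binding protein gene Aif1 (868 times), the platelet factor gene Pf4 (839.6 times), the lysozyme gene Lyz2 (698 times) and the myeloid transcription factor gene Spi1 (526 times). Since the cells were chosen by macrophage genes, these values describe the gate and are no test of it. The 12 microglia-type genes summed to 469 CPM in DPN and 543 CPM in Control, and most of these UMIs were those of Trem2 (350 UMIs in DPN and 363 in Control), which other macrophages use too. The more restricted Tmem119 had 21 UMIs in DPN and 15 in Control, and P2ry12 had 7 UMIs in DPN and 4 in Control. Of the microglia-type genes, 1 of 4 members with at least 20 UMIs were above 1, with a median log2 ratio of −0.17, and the number past the fold, of 2 with at least 100 UMIs, was 0 upwards and 0 downwards. The monocyte list summed to 17646 CPM in DPN and 16619.9 CPM in Control, mostly from Lyz2 (16892 CPM in DPN and 16092 CPM in Control). In this list 5 of 5 members with at least 20 UMIs were above 1, with a median log2 ratio of 0.18, and the number past the fold, of 5 with at least 100 UMIs, was 1 upwards and 0 downwards, while the matrix protein gene Vcan had 1 UMI in DPN and 0 in Control.

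Markers of other cell types were counted in the gated cells as well. T and NK cell genes summed to 3 UMIs in DPN and 1 UMI in Control, neutrophil genes to 5 UMIs in DPN and 2 in Control, and 5 B cell genes to 0 UMIs in both, which allows up to 2.81 CPM in DPN and 3.34 CPM in Control (3 counts a library). Schwann cell genes summed to 1898 CPM in DPN and 1311 CPM in Control, a ratio of 1.45 (1.35 to 1.56), and all 8 members with at least 20 UMIs were higher in DPN. Neuronal genes summed to 785 CPM in DPN and 337 CPM in Control, a ratio of 2.33 (2.04 to 2.67), with 8 of 8 members higher. In endothelial cells the neuronal genes summed to 326 CPM in DPN and 201 CPM in Control, and in satellite glia to 370 and 215 CPM. The Schwann cell genes were lower in DPN there, with 518 and 712 CPM in endothelial cells and 4235 and 4642 CPM in satellite glia. None of the 10 neuronal and none of the 10 Schwann cell genes was at 0 in either library. Satellite glial genes summed to 239.5 CPM in DPN and 233 CPM in Control and endothelial genes to 80.5 CPM in DPN and 60.2 CPM in Control. The part of neuronal RNA in the ratios that follow was not tested, and the counts without the gated cells led by Schwann cell genes are given with the groups of cells.

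**Figure D1:**
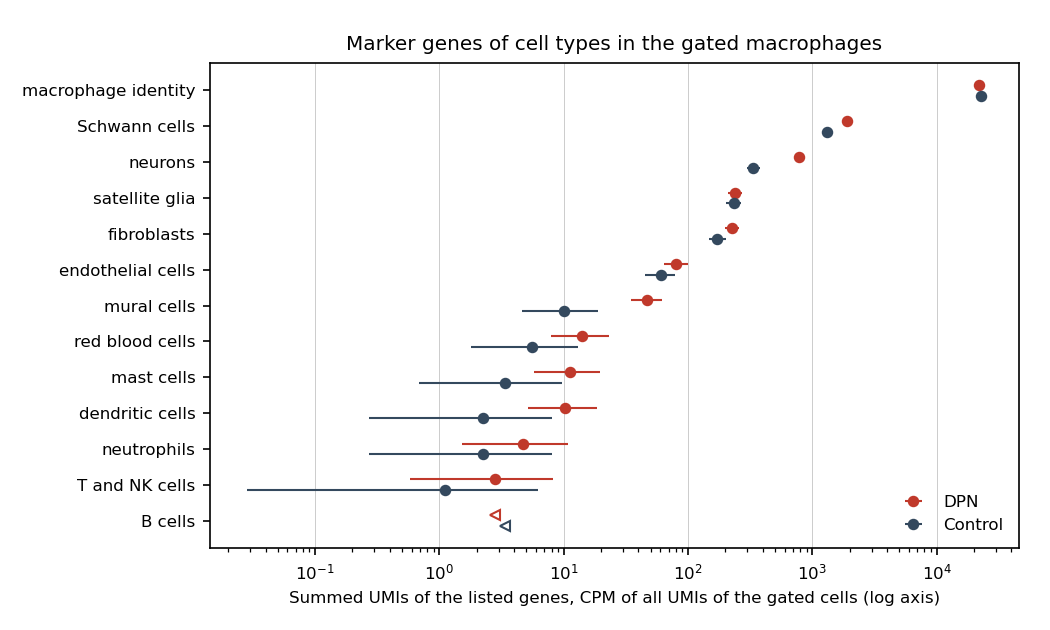
Summed level of marker genes of each cell type in the gated macrophages, in CPM on a log axis, with exact Poisson 95% intervals; red points are the DPN library, dark points the Control library, and open triangles mark the limit that 0 UMIs allow. Neuronal genes reached 785 CPM in DPN and 337 CPM in Control, and T and NK cell genes 2.81 CPM in DPN and 1.11 CPM in Control.

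Among 2412 genes with at least 100 UMIs in the gated cells, 443 were at least 1.5 times higher in DPN (18.4% of genes) and 106 were at most 0.667 times the Control level (4.39%). Genes beyond these limits are called past the fold. The median log2 ratio of the 2412 genes was 0.05. Over 6276 genes with at least 20 UMIs it was 0.19, and 63% of them were above 1, so a list of genes is read below against these values. With every cell thinned to 1000 UMIs, 560 genes were past the fold upwards and 289 downwards. Of the genes past the fold 66% were then higher in DPN, against 80.7% at full depth. The thinned counts covered the same 2412 genes with fewer UMIs each, so their ratios scattered more. The part of this scatter in the lower share was not tested.

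Much of this was found in other cells of the same pair of libraries too. Of the 2282 genes that also had at least 100 UMIs in endothelial cells, 1074 were above 1 there and 1208 below, with 307 past the fold upwards and 75 downwards. Of these genes, 424 were past the fold upwards in macrophages, and 390 of them were above 1 and 224 past the fold upwards in endothelial cells. Of the 95 that were past the fold downwards in macrophages, 87 were below 1 and 18 past the fold downwards in endothelial cells. Satellite glia gave a like picture, with 1089 of 2284 genes above 1 and 1195 below, and 300 past the fold upwards and 70 downwards. There 400 of 422 genes higher in macrophages were above 1 and 218 past the fold, and 88 of 98 lower ones were below 1 and 20 past the fold.

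**Figure D2:**
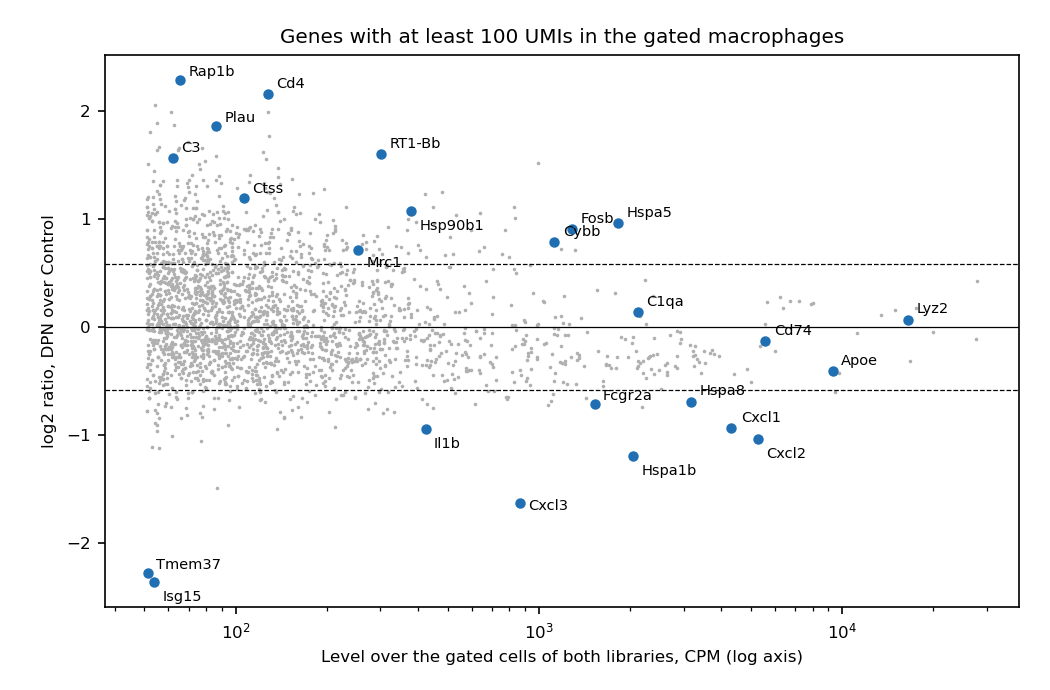
log2 ratio of CPM, DPN over Control, against the level over the gated cells of both libraries (CPM, log axis) for 2412 genes with at least 100 UMIs; the dashed lines mark ratios of 1.5 and 0.667, and blue points are genes named in the text. Cd4 and RT1-Bb lie above the upper line and Cxcl1, Cxcl2, Cxcl3, Il1b and Hspa1b below the lower one, while C1qa, Cd74 and Lyz2 lie between the lines.

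The neutrophil-attracting chemokines and IL-1β were lower in DPN macrophages. Cxcl2 had 3579 CPM in DPN and 7322 CPM in Control, a ratio of 0.489 (0.47 to 0.509). Cxcl1 had 3038 CPM in DPN and 5809 CPM in Control, a ratio of 0.523 (0.5 to 0.546). Both encode ligands of the neutrophil receptor CXCR2. Cxcl3, another ligand of this kind, had 442 CPM in DPN and 1367 CPM in Control, a ratio of 0.323 (0.29 to 0.36). Il1b, the gene of IL-1β, had 298 CPM in DPN and 573 CPM in Control, a ratio of 0.521 (0.452 to 0.6). All 4 were among the 15 lowest ratios of the gated cells. In gated cells Cxcl3 was 795 times, Cxcl2 615 times, Il1b 348 times and Cxcl1 33.6 times its level in the other passing barcodes.

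The 4 genes were also counted per cell. All 4 were past the fold downwards in the sums of the same cells, so these values describe their spread over cells and are no further support. The 4 genes together had a median of 39.9 per 10000 UMIs in a DPN cell (quartiles 10.7 and 93, highest 658) and 81.4 in a Control cell (quartiles 31.4 and 162, highest 1177), and the ranges overlapped widely. With each cell thinned to 1000 UMIs, a Cxcl3 UMI was found in 18.7% (13.9% to 24.3%) of DPN cells and 41% (33.4% to 48.9%) of Control cells. Il1b was found in 17% (12.3% to 22.4%) of DPN cells and 27.1% (20.5% to 34.5%) of Control cells. The shares for the more abundant genes had overlapping intervals, with Cxcl2 in 69.6% (63.2% to 75.4%) of DPN cells and 77.1% (70% to 83.3%) of Control cells and Cxcl1 in 57.8% (51.2% to 64.3%) of DPN cells and 60.8% (53% to 68.3%) of Control cells. Of endothelial cells thinned alike, 12.2% in DPN and 13.8% in Control had a Cxcl1 UMI and none had a Cxcl3 UMI. That limits the share of cells with a UMI at this depth to 0.284% in DPN and 0.426% in Control, and not the share of cells that use the gene. The median endothelial cell had 9686 UMIs in DPN and 10379 in Control. Unthinned, Cxcl3 was found in 37% of gated DPN cells and 54.2% of gated Control cells, and Il1b in 33% of gated DPN cells and 51.8% of gated Control cells.

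Other chemokines differed less or the other way. In the list of 20 cytokine and chemokine genes, which holds Cxcl1, Cxcl2 and Il1b but not Cxcl3, 4 of 16 members with at least 20 UMIs were above 1, with a median log2 ratio of −0.26, and the number past the fold, of 14 with at least 100 UMIs, was 1 upwards and 4 downwards. The median of this list was −0.31 over 10 members in endothelial cells and −0.30 over 13 in satellite glia, so it was lower there too. The monocyte-attracting Ccl2 had a ratio of 0.828 (0.765 to 0.896), and 0.366 in endothelial cells. Ccl3 and Ccl4, which attract monocytes and T cells, had ratios of 0.758 (0.689 to 0.835) and 1.24 (1.16 to 1.33). Il1rn, which encodes the antagonist of the IL-1 receptor, had 64.6 CPM in DPN and 39 CPM in Control, a ratio of 1.65 (1.09 to 2.56). Cxcl10, a ligand of CXCR3, had a ratio of 0.598 (0.474 to 0.752), but 93 of its 184 Control UMIs lay in 1 cell, and without the top cell of each library its ratio was 1.11. Tnf had 0 UMIs in both libraries.

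The bases before the starts of Cxcl1 and Cxcl2 are shown since both genes were past the fold and since NF-κB, a regulator of chemokine genes, binds a known motif. They are 150 bases from RefSeq (assembly GRCr8), 5′ to 3′ in the sense of the gene and ending just before its start, at chr14:17479322-17479471 (minus strand) for Cxcl1 and chr14:17467256-17467405 (minus strand) for Cxcl2. Capitals mark GGGNNTTTCC on either strand.
Cxcl1: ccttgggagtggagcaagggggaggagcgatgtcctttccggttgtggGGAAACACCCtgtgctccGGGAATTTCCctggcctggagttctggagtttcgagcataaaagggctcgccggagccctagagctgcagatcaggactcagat
Cxcl2: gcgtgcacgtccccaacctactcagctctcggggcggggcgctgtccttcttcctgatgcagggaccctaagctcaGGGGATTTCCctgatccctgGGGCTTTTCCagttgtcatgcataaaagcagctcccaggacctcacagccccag
Each stretch held 2 matches. Over the 250 bases before the start, 435 of 33469 RefSeq promoters (1.3%) held this motif, and 5 of the 15 promoters found for the cytokine and chemokine genes, namely Cxcl1, Cxcl2, Ccl9, Il1rn and Il6. A match describes the letters and not a bound site, and Il1rn, with a match, had a ratio above 1.

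Cd4 had 1 of the 15 highest ratios. Its product, a coreceptor for MHC class II, is carried by rat macrophages as well as by helper T cells. Cd4 had 198 CPM in DPN and 44.6 CPM in Control, a ratio of 4.45 (3.16 to 6.4). Thinned to 1000 UMIs, 20.4% (15.4% to 26.2%) of DPN cells and 3.01% (0.985% to 6.89%) of Control cells had a Cd4 UMI, against 0% of endothelial cells in both libraries. Unthinned, the shares were 53.9% of gated DPN cells and 21.1% of gated Control cells. The T and NK cell genes were at 2.81 CPM in DPN and 1.11 CPM in Control in the same cells. Over the settings tried the Cd4 ratio lay between 4.09 and 7.51.

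Genes of MHC class II presentation differed one by one. In this list 5 of 8 members with at least 20 UMIs were above 1, with a median log2 ratio of 0.11, and the number past the fold, of 8 with at least 100 UMIs, was 2 upwards and 0 downwards. The invariant chain gene Cd74 had a ratio of 0.915 (0.881 to 0.95), RT1-Da of 0.971 (0.922 to 1.02), RT1-Db1 of 1.02 (0.961 to 1.08) and RT1-Ba of 1.19 (1.08 to 1.3). RT1-Bb, the beta chain gene that pairs with RT1-Ba, had 436 CPM in DPN and 144 CPM in Control, a ratio of 3.03 (2.49 to 3.71). In 1 cell lay 40 of its 466 DPN UMIs and 61 of its 129 Control UMIs, and without the top cell of each library the ratio was 5.26. RT1 genes are near copies of each other and vary between rats, so the counts of RT1-Bb can depend on how reads were assigned. Ctss, of the lysosomal protease that trims the invariant chain, had 143 CPM in DPN and 62.4 CPM in Control, a ratio of 2.29 (1.68 to 3.17). The 8 MHC class I genes with at least 20 UMIs were all below 1, with a median log2 ratio of −0.22 and 0 past the fold.

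Scavenger and resident-type receptor genes were mostly higher in DPN. In this list 11 of 13 members with at least 20 UMIs were above 1, with a median log2 ratio of 0.54, beside −0.21 over 5 members in endothelial cells and 0.32 over 2 in satellite glia, and the number past the fold, of 6 with at least 100 UMIs, was 2 upwards and 0 downwards. The mannose receptor gene Mrc1 had 309 CPM in DPN and 188 CPM in Control, a ratio of 1.64 (1.36 to 1.98). Lyve1, a hyaluronan receptor gene, had 110.4 CPM in DPN and 53.5 CPM in Control, a ratio of 2.06 (1.46 to 2.95), and endothelial cells had a ratio of 2.34 (1.83 to 3.03). Genes with fewer UMIs included Cd163, the haemoglobin receptor gene, with 67 UMIs in DPN and 21 in Control (ratio 2.68, 1.62 to 4.6), and F13a1, of a clotting factor subunit, with 76 UMIs in DPN and 15 in Control (ratio 4.25, 2.42 to 7.97). Folr2 had a ratio of 1.24 (1.04 to 1.48), the lectin gene Clec10a of 1.26 (1.06 to 1.49) and Pf4 of 0.853 (0.757 to 0.961). Vsig4 and Marco had 0 UMIs in both libraries. Mrc1, Cd163, Lyve1, F13a1, Folr2 and Clec10a were also summed per cell. All of them had ratios above 1, and Pf4, below 1, was left out of this sum. Per 10000 UMIs the sum had a median of 10.3 in a DPN cell (quartiles 4.78 and 19.6). In a Control cell it was 7.18 (quartiles 3.21 and 11.8), so that the libraries overlapped.

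Receptors that sense microbes and immune complexes were mixed. Among Fc and pattern receptor genes 10 of 14 members with at least 20 UMIs were above 1, with a median log2 ratio of 0.11, while the number past the fold, of 10 with at least 100 UMIs, was 0 upwards and 3 downwards. The Fc receptor gene Fcgr2a had 1184 CPM in DPN and 1937 CPM in Control, a ratio of 0.611 (0.568 to 0.657). Its relative Fcgr3a, with which it can share reads, had 68 UMIs in DPN and 43 in Control. Cd14, of the coreceptor for lipopolysaccharide, had 215 CPM in DPN and 329 CPM in Control (ratio 0.654, 0.548 to 0.78), and Tlr2, which senses bacterial lipoproteins, had 186 CPM in DPN and 282 CPM in Control (ratio 0.66, 0.546 to 0.798). Over the settings tried Fcgr2a lay between 0.501 and 0.64, Cd14 between 0.559 and 0.717 and Tlr2 between 0.629 and 0.757, so only Fcgr2a stayed past the fold. Of all 2412 genes 4.39% were past the fold downwards. The inhibitory lectin gene Clec12a had 56 UMIs in DPN and 14 in Control, a ratio of 3.36 (1.84 to 6.53). Of the identity genes, the lysosomal glycoprotein gene Cd68 had 224 CPM in DPN and 364 CPM in Control (ratio 0.614, 0.517 to 0.727, and 0.586 to 0.787 over the settings tried). Cybb, of the catalytic subunit of the phagocyte NADPH oxidase, had 1391 CPM in DPN and 807 CPM in Control, a ratio of 1.72 (1.58 to 1.89), and Ptprc, the gene of CD45, had 327 CPM in DPN and 198 CPM in Control (ratio 1.65, 1.37 to 1.99).

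Complement genes differed by member. C1qa, C1qb and C1qc, which encode the recognition unit of the classical pathway and chose the cells, had ratios of 1.1, 0.902 and 1.07. C3, the central component gene, had 88.9 CPM in DPN and 30.1 CPM in Control, a ratio of 2.95 (1.91 to 4.71). In the complement list 5 of 9 members with at least 20 UMIs were above 1, with a median log2 ratio of 0.10, and the number past the fold, of 6 with at least 100 UMIs, was 2 upwards and 0 downwards.

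**Figure D3:**
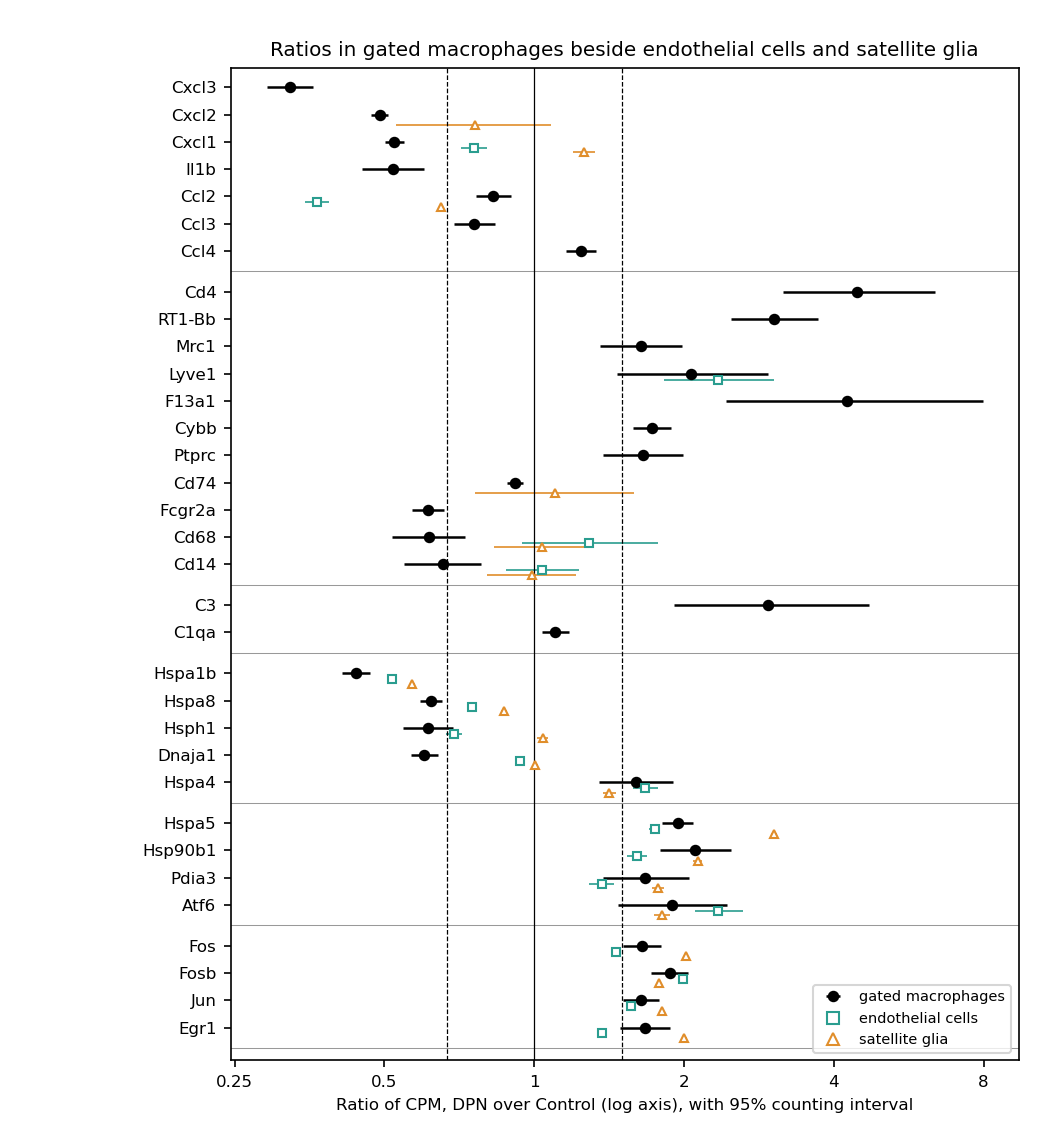
Ratios of CPM, DPN over Control (log axis), with 95% counting intervals, for named genes in gated macrophages (black circles), and in endothelial cells (green squares) and satellite glia (orange triangles) where a gene had at least 100 UMIs there. Dashed lines mark 1.5 and 0.667; Hspa5 had 1.94 in macrophages, 1.75 in endothelial cells and 3.03 in satellite glia.

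Cytosolic heat shock genes, whose products refold proteins, were mostly lower in DPN macrophages. In this list 2 of 13 members with at least 20 UMIs were above 1, with a median log2 ratio of −0.49, beside −0.40 over 13 members in endothelial cells and −0.20 over 13 in satellite glia, and the number past the fold, of 12 with at least 100 UMIs, was 2 upwards and 4 downwards. The inducible Hsp70 gene Hspa1b had 1293 CPM in DPN and 2951 CPM in Control, a ratio of 0.438 (0.41 to 0.468), with 0.518 in endothelial cells and 0.569 in satellite glia. Its near copy Hspa1a has no symbol in the counts. The constitutive Hsp70 gene Hspa8 had 2486 CPM in DPN and 4008 CPM in Control (ratio 0.62, 0.59 to 0.652). The cochaperone gene Dnaja1 had 1674 CPM in DPN and 2784 CPM in Control (ratio 0.601, 0.565 to 0.639), and the exchange factor gene Hsph1 had 477 CPM in DPN and 779 CPM in Control (ratio 0.612, 0.545 to 0.688). Ahsa1, which activates Hsp90 and was outside the list, had 96.4 CPM in DPN and 185 CPM in Control (ratio 0.521, 0.403 to 0.67). Hspa4 and Dnajb4 went the other way, with ratios of 1.6 (1.35 to 1.9) and 1.78 (1.26 to 2.56).

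Chaperones of the endoplasmic reticulum (ER) were mostly higher. In this list 15 of 20 members with at least 20 UMIs were above 1, with a median log2 ratio of 0.50, beside 0.15 over 20 members in endothelial cells and 0.49 over 20 in satellite glia, and the number past the fold, of 16 with at least 100 UMIs, was 5 upwards and 0 downwards. Hspa5, the gene of the chaperone BiP, had 2340.1 CPM in DPN and 1205 CPM in Control, a ratio of 1.94 (1.81 to 2.09). Hsp90b1, the Hsp90 of this compartment, had 498 CPM in DPN and 236 CPM in Control, a ratio of 2.11 (1.79 to 2.48). The stress sensor gene Atf6 had a ratio of 1.89 (1.47 to 2.44), and the disulfide isomerase genes Pdia3 and Pdia6 had 1.67 (1.37 to 2.05) and 1.55 (1.22 to 1.99). Ddit3 and Atf4, transcription factor genes of the arm of this response that slows translation, had ratios of 0.808 (0.704 to 0.927) and 0.889 (0.818 to 0.965). Per 10000 UMIs, a DPN cell had a median of 30.4 UMIs of Hspa5, Hsp90b1, Pdia3 and Pdia6 (quartiles 21.2 and 41.2). A Control cell had 15.5 (quartiles 10.2 and 21.1), so that the lower quartile of DPN cells lay above the upper quartile of Control cells. These genes were all past the fold upwards in the sums, and list members near or below 1 were left out. The values per cell thus describe their spread over cells and are no further support.

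Promoters of these opposite groups are shown for the elements that their known regulators bind, the heat shock element of HSF1 and the ER stress element of NF-Y and ATF6. They are again 150 bases of RefSeq (GRCr8) before the start, at chr8:50080364-50080513 (plus strand) for Hspa8, chr12:10427218-10427367 (plus strand) for Hsph1, chr3:38452866-38453015 (plus strand) for Hspa5 and chr7:23012294-23012443 (minus strand) for Hsp90b1. Capitals mark GAANNTTCNNGAA in Hspa8 and Hsph1 and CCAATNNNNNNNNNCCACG in Hspa5 and Hsp90b1, on either strand.
Hspa8: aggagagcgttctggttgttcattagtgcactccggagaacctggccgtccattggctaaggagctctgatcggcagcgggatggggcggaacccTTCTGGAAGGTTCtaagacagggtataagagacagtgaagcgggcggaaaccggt
Hsph1: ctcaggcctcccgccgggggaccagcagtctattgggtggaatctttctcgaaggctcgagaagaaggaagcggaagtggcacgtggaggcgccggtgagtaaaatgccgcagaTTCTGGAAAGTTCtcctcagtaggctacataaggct
Hspa5: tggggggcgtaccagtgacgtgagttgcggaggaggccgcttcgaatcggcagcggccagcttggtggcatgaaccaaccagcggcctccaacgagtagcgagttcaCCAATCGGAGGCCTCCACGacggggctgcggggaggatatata
Hsp90b1: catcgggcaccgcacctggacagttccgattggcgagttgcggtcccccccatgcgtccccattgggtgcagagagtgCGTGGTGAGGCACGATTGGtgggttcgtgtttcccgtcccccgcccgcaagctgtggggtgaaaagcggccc
Over 250 bases, the heat shock element lay in 222 of 33469 promoters (0.663%) and in 4 of the 12 found for the heat shock genes, namely Hspa8, Hsph1, Hspd1 and Hspe1. The ER stress element lay in 22 promoters (0.0657%) and in 7 of the 16 found for the ER genes, namely Hspa5, Hsp90b1, Calr, Canx, Creld2, Dnajc3 and Xbp1. Calr, a lectin chaperone gene with a match, had a ratio of 1.01 (0.916 to 1.12).

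Immediate early genes, which are switched on within minutes of a stimulus and also by tissue dissociation, were mostly higher in DPN. In this list 18 of 21 members with at least 20 UMIs were above 1, with a median log2 ratio of 0.41, beside 0.25 over 24 members in endothelial cells and 0.68 over 24 in satellite glia, and the number past the fold, of 19 with at least 100 UMIs, was 4 upwards and 0 downwards. Of all 2412 genes 18.4% were past the fold upwards, a share near that of this list. Fosb had 1636 CPM in DPN and 874 CPM in Control (ratio 1.87, 1.72 to 2.04), and Egr1 had 807 CPM in DPN and 484 CPM in Control (ratio 1.67, 1.49 to 1.88). Fos and Jun, which pair in the AP-1 transcription factor, had ratios of 1.65 (1.51 to 1.8) and 1.64 (1.51 to 1.78), and without the 10 deepest cells of each library Fos had 2.54. Ier3, a target of NF-κB, had 0.735 (0.667 to 0.809).

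Lipid, iron and trophic genes were mixed. In the lipid and lysosome list 11 of 23 members with at least 20 UMIs were above 1, with a median log2 ratio of −0.01, and the number past the fold, of 21 with at least 100 UMIs, was 0 upwards and 1 downwards. The gene past the fold was Gpnmb, of a glycoprotein of lipid-laden macrophages, with 56.1 CPM in DPN and 85.8 CPM in Control (ratio 0.654, 0.459 to 0.929). Apoe, of apolipoprotein E, had 8085 CPM in DPN and 10737 CPM in Control (ratio 0.753, 0.731 to 0.775), with 0.792 in endothelial cells and 0.838 in satellite glia. Over the settings tried the Apoe ratio lay between 0.686 and 0.88, and it differed between the groups of cells described below. Hmox1, whose enzyme degrades heme, had 333 CPM in DPN and 544 CPM in Control (ratio 0.612, 0.533 to 0.703), with 64 of its 488 Control UMIs in 1 cell. Among trophic factors the number past the fold, of 8 with at least 100 UMIs, was 1 upwards and 1 downwards. The stress cytokine gene Gdf15 had 116 CPM in DPN and 197 CPM in Control (ratio 0.588, 0.464 to 0.744) and the galectin gene Lgals1 212 CPM in DPN and 137 CPM in Control (ratio 1.55, 1.24 to 1.95). Over the settings tried the Lgals1 ratio lay between 1.47 and 2.44. S100a6, a calcium-binding protein gene of the monocyte list, had 268 CPM in DPN and 110.3 CPM in Control (ratio 2.43, 1.92 to 3.08). Schwann cells also use Lgals1 and S100a6.

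The 15 highest ratios belonged mostly to genes that were also higher in the other cells. Rap1b, of a small GTPase of cell adhesion, had 103 CPM in DPN and 21.2 CPM in Control, a ratio of 4.86 (2.97 to 8.38), with 3.92 in endothelial cells and 4.19 in satellite glia. Nufip2, Eps15, Zc3h12c, Hnrnph2, Bach1, Tmf1, Trpm7, Agfg1 and Fam193a had ratios of 3.1 to 4.15, and of 1.98 to 3.32 in endothelial cells and 1.73 to 3.44 in satellite glia. Gm25541, a predicted gene, had 3.97 (2.86 to 5.63). Hivep3, a zinc finger protein gene, had 93.6 CPM in DPN and 25.6 CPM in Control, a ratio of 3.65 (2.3 to 6.02), with 0.787 in satellite glia and under 100 UMIs in endothelial cells. Plau, of the urokinase that activates plasminogen, had 129 CPM in DPN and 35.7 CPM in Control, a ratio of 3.62 (2.45 to 5.5), with 17 of its 138 DPN UMIs in 1 cell. Stmn2, a neuronal gene, had 178 CPM in DPN and 58 CPM in Control (ratio 3.07, 2.25 to 4.25), beside the neuronal sums given above. Cd4 completed the 15.

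Of the 15 lowest ratios beside the chemokines and heat shock genes, Tmem37 had 18.7 CPM in DPN and 90.3 CPM in Control, a ratio of 0.207 (0.12 to 0.341), with a UMI in 6.96% of DPN cells and 26.5% of Control cells before thinning. It encodes a membrane protein related to calcium channel gamma subunits, and had a ratio of 0.76 in endothelial cells. Mnda, an interferon-inducible myeloid gene, had 106 CPM in DPN and 189 CPM in Control (ratio 0.558, 0.436 to 0.712), and Lpxn, of a leukocyte adhesion adaptor, had 67.4 CPM in DPN and 126 CPM in Control (ratio 0.535, 0.392 to 0.725). The rest, Tpst2, Tmem11, Sptssa, Ciao2b, Eif3l and Chchd1, had ratios of 0.464 to 0.56, on 37 to 52 UMIs in DPN and 65 to 78 UMIs in Control. Over the settings tried the ratio of Sptssa lay between 0.289 and 0.733. Among the 20 genes that marked the gate, Ltc4s had 0.592 (0.497 to 0.705).

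The gated cells were divided by their variable genes after the mean of each library had been removed. Without that step the libraries came apart, with 173 DPN and 15 Control cells in the largest group and 4 DPN and 123 Control cells in the next. The division gave 5 groups, which are described by their leading genes and carry no test. Group 1 (77 DPN and 62 Control cells) was led by Cxcl1, Il1b, Cd14, Gdf15 and Tlr2, the genes of the chemokine and pattern receptor results. Group 2 (59 DPN and 48 Control cells) was led by the collectin gene Colec12, Cd163 and F13a1. Group 3 (42 DPN and 26 Control cells) was led by Rgs2, Ch25h, Dusp1, Nr4a2 and Jun, most of them early response genes. Group 4 (33 DPN and 19 Control cells) was led by RT1-Db1, RT1-Ba, the scavenger receptor gene Olr1, RT1-Da and the fatty acid binding protein gene Fabp4. Group 5 (19 DPN and 11 Control cells) was led by Schwann cell genes, among them the calcium-binding protein gene S100b and the myelin protein gene Mal, and its cells had a median of 9394 UMIs, against 3885.5 to 5312 in the other groups.

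**Figure D4:**
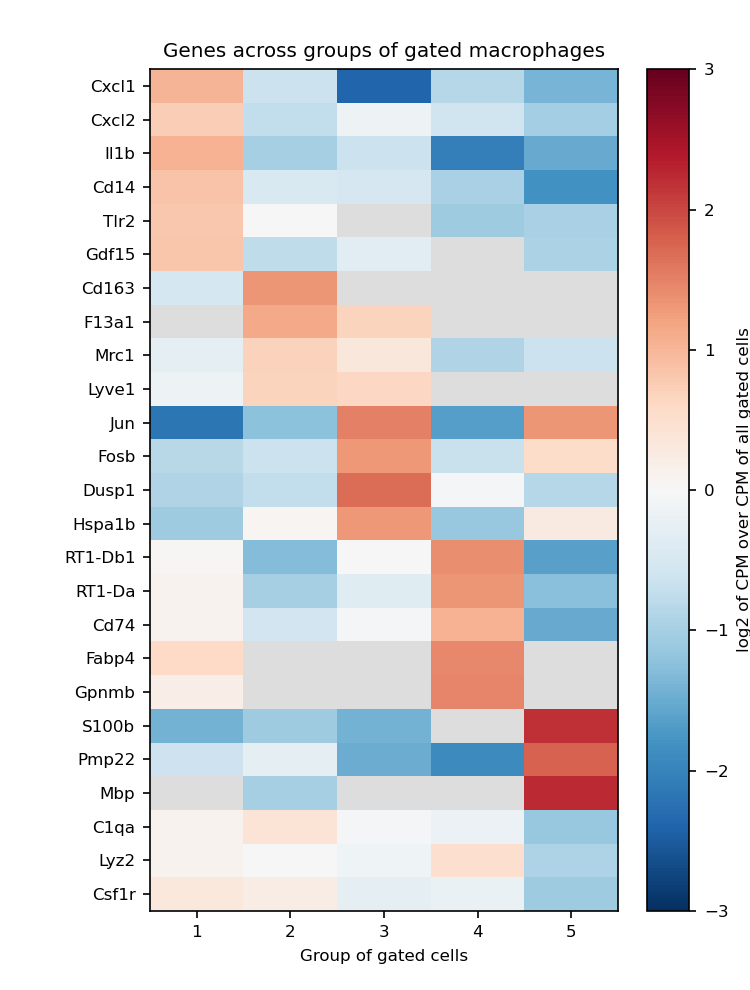
log2 of the CPM of a gene in each of the 5 groups over its CPM in all gated cells; grey fields had under 20 UMIs, and values beyond 3 or −3 are drawn at those limits. Cxcl1 and Il1b are highest in group 1, Cd163 in group 2, RT1-Db1 in group 4 and Mbp in group 5, while Lyz2 is found in every group.

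Within these groups the chemokine genes did not all keep one ratio. Cxcl2 was lower in DPN in all 5, with ratios of 0.445 to 0.824, and Cxcl3 likewise, with 0.186 to 0.397. Cxcl1 had 5445 CPM in DPN and 12255 CPM in Control in group 1, a ratio of 0.444 (0.42 to 0.469). In group 3 it had 1078 CPM in DPN and 455 CPM in Control, a ratio of 2.37 (1.74 to 3.28), the other way from group 1. Cxcl1 had 0.718 (0.64 to 0.805) in group 2. The intervals of Cxcl1 held 1 in group 4, with 0.913 (0.779 to 1.07), and in group 5, with 1.03 (0.856 to 1.24). Il1b had a ratio of 0.507 (0.426 to 0.602) in group 1, 0.696 (0.452 to 1.06) in group 2, 0.289 (0.169 to 0.478) in group 3 and 0.767 (0.34 to 1.75) in group 4. Only in group 5 was Il1b above 1, with 2.82 (1.36 to 6.42) on 33 UMIs in DPN and 10 in Control. The median of the 4 genes per cell was lower in DPN in every group, with 66.2 per 10000 in DPN and 162 per 10000 in Control in group 1 and 30.5 per 10000 in DPN and 48.5 per 10000 in Control in group 3. The groups were built from these same counts, so such values describe them.

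**Figure D5:**
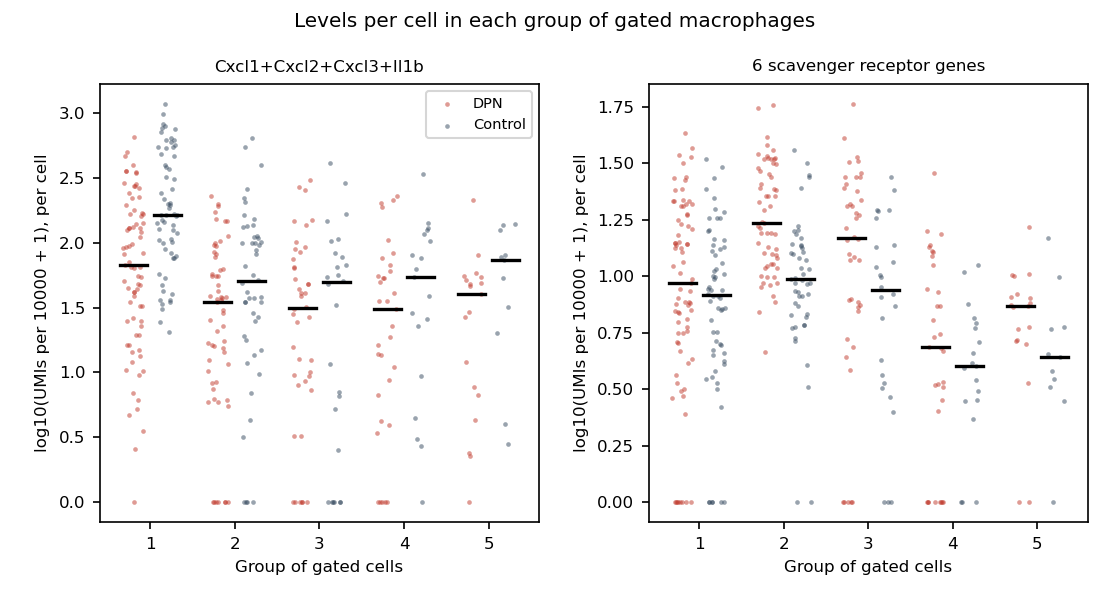
Level per cell in the 5 groups of gated macrophages, as log10 of UMIs per 10000 plus 1, for Cxcl1, Cxcl2, Cxcl3 and Il1b together (left) and for Mrc1, Cd163, Lyve1, F13a1, Folr2 and Clec10a together (right); each point is 1 cell, red for DPN and dark for Control, and bars are medians. In group 1 the chemokine medians were 66.2 per 10000 in DPN and 162 per 10000 in Control, and in group 2 the scavenger receptor medians were 16.2 per 10000 in DPN and 8.71 per 10000 in Control. Over all gated cells every gene summed at left had a ratio below 1, and every gene summed at right a ratio above 1.

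Several other genes kept their side of 1 across the groups. Cybb had ratios of 1.43 to 2.23 in the 5 groups and Hspa5 of 1.58 to 2.86. Cd4 had 2.99 to 5.47 in groups 1 to 4. Hspa1b had 0.328 to 0.395 in groups 1 to 4 and 0.944 (0.814 to 1.1) in group 5. RT1-Bb was uneven, with 1.82 in group 1, 1.92 in group 2, 21.6 (7.18 to 107) in group 3 and 4.48 in group 4. The value of group 3 rested on 94 UMIs in DPN and 3 in Control. The Control cell with the most RT1-Bb UMIs lay in group 1, so the value of that group depended on it. Apoe was uneven too, with 0.529 (0.501 to 0.559) in group 5 and 1.02 (0.971 to 1.08) in group 2. In groups 3 and 4 Apoe had 0.793 and 0.864. Without group 5, 372 of 2067 genes were past the fold upwards (18%) and 92 downwards (4.45%), a count chosen after seeing the data.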

How the data were processed

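Single cells of L3 to L6 ganglia were measured in 1 DPN and 1 Control library, each pooled from 5 rats. The authors deposited raw UMI counts per gene and barcode, made with Cell Ranger 3.1.0 per the file headers, which aligns with STAR (genome build: not given in the sources used here). Counts of 147 symbols that several identifiers share were added. Gated cells were summed for each library and scaled to CPM, so more RNA of a gene per cell and more cells using it cannot be told apart in a sum. Intervals were exact (Poisson for levels, Clopper-Pearson for shares, conditional binomial for ratios); with 1 library for each condition no p-value was computed. Endothelial cells (1055 DPN and 705 Control) had at least 20 per 10000 UMIs of Cldn5, Flt1 and Cdh5, under 12 of Fabp7 and Tyrp1 and under 5 of the C1q genes and Csf1r. Satellite glia (2965 DPN and 4089 Control) had at least 12 of Fabp7 and Tyrp1 and under 5 of either other sum. The C1q genes and Csf1r were therefore not compared with these cells.

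No doublet caller was run; an alternative left out cells with genes of other types. Named genes were members of the lists, the 15 highest and 15 lowest ratios of genes past the limit of 100 UMIs that were detected in 10% or more of either library's gated cells, without gate genes, Mt- genes and clone or locus names, and the 20 genes that stood out most from other passing barcodes at 200 CPM or more. The cells and the gene lists were chosen with earlier results of these data known. Cells were divided by Leiden clustering (resolution 0.5) of 15 components of 1000 variable genes. Shares used cells thinned at random to 1000 UMIs. Promoter sequences came from RefSeq. Results on some genes are not reported here. Python 3.11.15, numpy 2.4.6, scipy 1.17.1, pandas 2.3.3, scikit-learn 1.9.0, leidenalg 0.10.2 and matplotlib 3.10.9 were used, and the counting steps were tested on simulated data. The alternatives changed the scaling, the thinning, the UMI minimum per gene or barcode, the Mt- limit, the gate and the cells kept.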

Additional observations from a re-analysis of the deposited data

Results flagged for a closer look

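For the genes given here the ratio of DPN over Control was past the fold one way in the gated macrophages and the other way in another kind of cell of the same libraries. With 1 library for each condition these differences were not tested. Hopx, a homeobox protein gene, had 1.63 (1.16 to 2.32) in gated cells, on 101 UMIs in DPN and 52 in Control, and 0.32 (0.284 to 0.36) in endothelial cells. Tent5a, of a poly(A) polymerase, had 1.57 (1.15 to 2.17) in gated cells, on 120 UMIs in DPN and 64 in Control, and 0.452 (0.343 to 0.593) in endothelial cells. Mbp, of a myelin protein, had 1.81 (1.34 to 2.47) in gated cells, on 138 UMIs in DPN and 64 in Control, and 0.425 (0.362 to 0.497) in endothelial cells, but 0.894 in gated cells without those led by Schwann cell genes.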

How the results depend on the processing

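Of 267 named or listed genes with at least 100 UMIs, 84 were past the fold, and 55 of these were past it under all 12 alternatives for single genes. The count of genes past the fold downwards was 289 with cells thinned to 1000 UMIs, over the same 2412 genes with fewer UMIs each. With at least 20 UMIs per gene, 1813 genes were past it upwards and 375 downwards, and with at least 400 UMIs 61 and 38; these count over other numbers of genes. With an Mt- limit of 10% the gated share of barcodes was 1.32% in DPN and 1.32% in Control. Some ratios crossed 1. Thinned, Cxcl10 had 1.06 and Ptgds 1.59. Mbp had 0.969 without cells with genes of other types. Without the 10 deepest cells of each library, which held 10.4% of gated UMIs in DPN and 14.8% in Control, Cxcl10 had 1.58 and Isg15 1.7. Of the alternatives chosen after seeing the data, leaving out the cells led by Schwann cell genes gave 1.47 for Cxcl10, 1.78 for Isg15 and 0.894 for Mbp, and leaving out the top cell of each gene 1.11 for Cxcl10 and 1.1 for Isg15. For Isg15, 73 of its 86 Control UMIs lay in 1 cell; the cause of the other shifts was not tested. Limits on UMIs and genes of 4 median absolute deviations removed no gated cell. No paired analysis was possible because there was only 1 library a condition. Genes with few UMIs in 230 DPN and 166 Control cells have wide counting intervals, and the spread between rats is unknown.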

Other observations

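Gene groups not described above also differed in direction. Of the ribosomal protein genes 0 of 25 members with at least 20 UMIs were above 1, with a median log2 ratio of −0.26, and the number past the fold, of 25 with at least 100 UMIs, was 0 upwards and 2 downwards. In endothelial cells 0 of 25 were above 1 (median −0.16) and in satellite glia 1 of 26 (median −0.22). Over the 647 genes with at least 400 UMIs in gated cells the median log2 ratio was −0.11. Of the genes of the mitochondrial genome 13 of 13 members with at least 20 UMIs were above 1, with a median log2 ratio of 0.24, and the number past the fold, of 13 with at least 100 UMIs, was 4 upwards and 0 downwards. In endothelial cells 9 of 13 were above 1 (median 0.07) and in satellite glia 13 of 13 (median 0.19). Clock genes, which keep daily rhythm, had few UMIs, and 12 of 12 members with at least 20 UMIs were above 1, with a median log2 ratio of 0.44, beside 1.04 over 15 members in endothelial cells and 0.92 over 15 in satellite glia. Of the interferon response genes 6 of 15 members with at least 20 UMIs were above 1, with a median log2 ratio of −0.25, and of the alternatives tried the lowest median was −0.48 and the highest 0.18. Isg15, a ubiquitin-like protein gene of this list, had 18.7 CPM in DPN and 95.9 CPM in Control (ratio 0.195, 0.114 to 0.32), and its ratio rested on 1 Control cell as given above. In the iron and heme list 5 of 11 members with at least 20 UMIs were above 1, with a median log2 ratio of −0.14. The ferritin genes Fth1 and Ftl1, which store iron, had ratios of 0.807 (0.789 to 0.824) and 0.744 (0.723 to 0.766). In the glucose and hypoxia list 13 of 22 members with at least 20 UMIs were above 1, with a median log2 ratio of 0.14. Txnip, a glucose-responsive gene that restrains glucose uptake, had 260.1 CPM in DPN and 173 CPM in Control (ratio 1.51, 1.23 to 1.84) in gated cells, and a ratio of 4.68 in satellite glia. In group 5, led by Schwann cell genes, Txnip had 88 UMIs in DPN and 21 in Control, a ratio of 3.58 (2.21 to 6.08). Its ratios in groups 2, 3 and 4 were 0.868, 0.936 and 1.33, and in group 1 Txnip was higher in DPN too. Over the settings tried the Txnip ratio lay between 1.19 and 1.59. Hif1a, of the oxygen-sensing transcription factor, had 118 CPM in DPN and 74.7 CPM in Control (ratio 1.58, 1.16 to 2.16).

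The span of genes from start to end (RefSeq, GRCr8) had a median of 47.1 kb for genes past the fold upwards, 7.13 kb for those past it downwards and 14.9 kb for the other measured genes, with 94.4%, 90.6% and 93.9% of the genes matched. Their median levels were 86.5, 130.5 and 116 CPM.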
